A study of Mus musculus with 4 samples.

Results

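The transcripts of 7 receptors for chemokines were followed across the leukocytes of the mouse cortex after stroke: Ccr1, Ccr2, Ccr7, Cxcr3, Cxcr4, Cxcr6 and Cx3cr1. They were chosen as chemokine receptor genes by their symbols in the gene table, which held all 7 among 32285 genes (ENSMUSG00000025804, ENSMUSG00000049103, ENSMUSG00000037944, ENSMUSG00000050232, ENSMUSG00000045382, ENSMUSG00000048521 and ENSMUSG00000052336, in that order), and 17 further chemokine receptors served as a comparison list. The measurement was the number of unique molecular identifiers (UMIs, 1 per captured transcript molecule) of each receptor, summed over the cells of a leukocyte class in a library and scaled to a common total over all genes of that class (CPM, the usual scale of such counts).

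The cells came from male C57BL/6N mice aged 10 months, from the infarct core with about 2 mm of cortex around it. The 4 groups were sham surgery with an isotype control antibody, dMCAO stroke (occlusion of the distal middle cerebral artery) with the isotype control, called isotype stroke below, dMCAO stroke with an antibody against VCAM1, and dMCAO stroke with an antibody against VLA4, each given for 10 weeks. VCAM1 is an adhesion molecule of activated endothelium, and VLA4 is the integrin on leukocytes that binds it. Each group was 1 library, from a pool of 4 to 5 mice, so a difference between groups below is a difference between libraries with no replicate check. All intervals are 95% intervals that cover counting error only.

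Chemokine receptors are multi-pass membrane proteins coupled to inhibitory G proteins, and they steer leukocytes along gradients of small secreted proteins. Ccr1 binds Ccl3, Ccl5 and related ligands of inflamed tissue, and Ccr2 binds Ccl2, Ccl7 and Ccl12 and brings monocytes out of the marrow. Cxcr3 binds the interferon-induced Cxcl9 and Cxcl10, and Cxcr6 binds Cxcl16 and is known on tissue-resident T cells. Ccr7 binds Ccl19 and Ccl21 and leads dendritic cells and lymphocytes to lymph nodes. Cxcr4 binds Cxcl12, and Cx3cr1 binds the neuronal ligand Cx3cl1 and marks microglia.

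The promoters of Cxcr6 and Cxcr3, whose transcripts lay mostly in 1 lymphocyte class, and of Cx3cr1, whose transcripts lay mostly in microglia, are shown. These 3 receptors had the largest share of their leukocyte UMIs in 1 class. Each stretch is the 250 bases before the RefSeq gene start (GRCm38.p6), read along the strand of the gene, with matches to the searched motifs in capitals. It lies at chr9:123806227-123806476 on the plus strand for Cxcr6, at chrX:101734148-101734397 on the minus strand for Cxcr3 and at chr9:120068297-120068546 on the minus strand for Cx3cr1.
Cxcr6: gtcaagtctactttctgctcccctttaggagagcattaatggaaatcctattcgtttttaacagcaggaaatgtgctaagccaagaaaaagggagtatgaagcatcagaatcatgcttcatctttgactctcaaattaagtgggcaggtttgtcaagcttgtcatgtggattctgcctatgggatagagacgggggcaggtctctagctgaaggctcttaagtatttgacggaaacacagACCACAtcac
Cxcr3: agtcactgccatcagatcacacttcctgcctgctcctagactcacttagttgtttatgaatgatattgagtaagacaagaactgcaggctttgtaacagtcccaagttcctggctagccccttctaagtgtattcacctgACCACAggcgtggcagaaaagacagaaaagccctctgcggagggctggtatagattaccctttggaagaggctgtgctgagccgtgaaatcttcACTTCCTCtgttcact
Cx3cr1: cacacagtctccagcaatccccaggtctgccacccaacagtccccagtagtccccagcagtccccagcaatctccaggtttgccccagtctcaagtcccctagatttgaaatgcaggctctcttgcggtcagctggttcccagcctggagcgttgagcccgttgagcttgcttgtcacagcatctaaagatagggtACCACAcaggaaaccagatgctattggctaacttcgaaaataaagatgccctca
The capitals mark TGTGGT, the core that RUNX factors bind, found here on the opposite strand in all 3, and in Cxcr3 also GAGGAAGT, an ETS element that PU.1 binds, again on the opposite strand. TGTGGT on either strand was present in 4 of the 6 members with a promoter entry, Ccr1 being the other, and in 14.0% of 32851 promoter stretches of the same length. GAGGAAGT was present in 2.44% of them, and among the members in Cxcr3 alone. AGATAA, the motif of the GATA family, matched Ccr2 alone and stood in 9.99% of all stretches. TCACACC, an element of T-box factors, matched no member and stood in 3.33%. A match is a description of these letters, and no binding was measured.

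The deposited matrices held 1541 to 6361 barcodes a library, and 15219 cells were kept, with a median of 4516.5 to 5466 UMIs a cell and 9892316 to 33386331 UMIs a library. Clusters were named "X-like" from marker genes, which gave 7983 cells in 8 leukocyte classes, and they made up 62.6% of kept cells in sham, 75.6% in isotype stroke, 44.4% under anti-VCAM1 and 45.5% under anti-VLA4. Cells had been stained for CD31 and CD45, and the labels do not say which fractions were collected, so the sort and the group cannot be told apart as sources of these shares. Microglia-like cells were the largest class, with 688, 1460, 1798 and 2433 cells in the order sham, isotype stroke, anti-VCAM1 and anti-VLA4, an order kept below. Border-macrophage-like cells, named from perivascular and meningeal macrophage genes such as Mrc1 and Pf4, numbered 113, 181, 58 and 89, and T-cell-like cells 73, 247, 111 and 202. The dendritic-like (34, 108, 45 and 46), B-cell-like (15, 87, 28 and 40), monocyte-like (12, 27, 19 and 4), neutrophil-like (10, 6, 10 and 4) and plasma-cell-like cells (4, 25, 0 and 6) were too few for ratios between libraries.

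Some barcodes were found in more than 1 library. Sham and isotype stroke shared 53 kept barcodes, and in 49 of them the stroke cell held under 10% of the UMIs of the sham cell (medians 603 against 18200). The other pairs of libraries shared 1 to 7. In isotype stroke 24 of 108 dendritic-like and 15 of 1460 microglia-like cells were such low-UMI copies, and none of the T-cell-like cells was. The sham cells with a shared barcode were deep, and they held 61.7% of the UMIs of the dendritic-like, 23.2% of the border-macrophage-like and 22.9% of the T-cell-like class of that library. Some values without them are given below. Of the naming markers, P2ry12 was detected in 94.2% of microglia-like, Trbc2 in 85.8% of T-cell-like and Cd79a in 98.2% of B-cell-like cells. The 8 border macrophage markers ran from Mrc1, in 83.2% of that class, through Ms4a7 (71.9%) to Cbr2 (25.2%), Cd163 (23.6%) and Lyve1 (15.4%). The dendritic-like class was weakly marked, with Wdfy4 in 48.1% and Clec9a in 9.87% of cells. Cells of the T-cell-like class included NK cells by their own markers (17, 18, 12 and 11), and Cd4, a defining helper T cell marker, was detected in 10.6% of the class against 49.8% for Cd8a.

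Each receptor had its own distribution over the classes. Pooled over the libraries, 94.3% of the leukocyte UMIs of Cx3cr1 were in microglia-like cells, 95.2% of those of Cxcr6 and 85.0% of those of Cxcr3 in T-cell-like cells. Microglia-like cells were 6379 and T-cell-like cells 633 of the 7983 leukocyte-class cells. Ccr1 lay in border-macrophage-like (49.1%), dendritic-like (24.5%) and microglia-like cells (16.2%), and Ccr2 in dendritic-like (34.7%), border-macrophage-like (34.0%), T-cell-like (12.4%) and monocyte-like cells (9.85%). Ccr7 was divided between B-cell-like (45.9%), dendritic-like (39.0%) and T-cell-like cells (15.2%), with no UMI in microglia-like or border-macrophage-like cells of any library. Cxcr4 was the most widely spread, with no class above 28.7%. Since 3' libraries capture transcripts unequally, levels are compared across classes and libraries for 1 gene at a time, and not between genes.

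**Figure D1:**
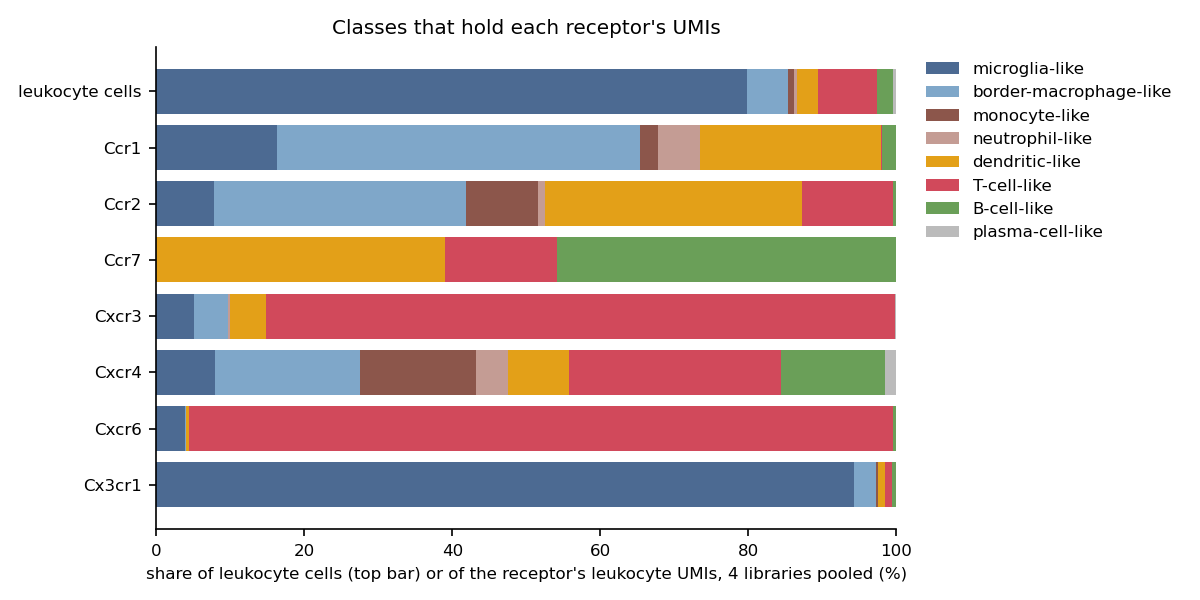
Share of each receptor's leukocyte UMIs held by each class, over the 4 libraries pooled (%), under a bar with the share of leukocyte cells in each class. Microglia-like cells hold 94.3% of Cx3cr1 UMIs, T-cell-like cells 95.2% of Cxcr6 UMIs, and no class more than 28.7% of Cxcr4 UMIs.

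Cx3cr1 was highest in microglia-like cells in all 4 libraries. Its level there was 2693 CPM (2648 to 2738) in sham, 2468 CPM (2436 to 2500) in isotype stroke, 2406 CPM (2376 to 2437) under anti-VCAM1 and 2305 CPM (2280 to 2331) under anti-VLA4. The libraries were close to each other, with sham highest and anti-VLA4 lowest. The log2 ratio of stroke over sham, on CPM + 1, was -0.13 (-0.16 to -0.10), that of anti-VCAM1 over isotype -0.04 (-0.06 to -0.01) and that of anti-VLA4 over isotype -0.10 (-0.12 to -0.07). The anti-VCAM1 value had the opposite sign when cells were thinned to equal depth, at 0.0031. Of cells thinned to 1000 UMIs, which left out 2, 29, 23 and 33 shallower cells, 85.4%, 84.1%, 83.0% and 83.3% held a Cx3cr1 UMI, against 1.35%, 1.92%, 1.56% and 1.58% of endothelial-like cells, a class that should lack the gene. Unthinned shares were 95.8% to 97.8% in microglia-like and 4.39% to 7.74% in endothelial-like cells, at median depths of 5226 to 7351.5 and 3958 to 4792 UMIs.

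Within the microglia-like class, the level of Cx3cr1 ranged from 1402 to 3274 CPM over clusters, wider than the range over libraries. Cluster 2, led by Adcy8, Upk1b and non-coding transcripts, had the highest level in each library, at 3274, 2963, 2793 and 2706 CPM. Cluster 1, led by Crybb1, Cst3 and Trem2, and cluster 4, led by the immediate-early genes Egr1 and Fos, had 2842, 2687, 2584 and 2420 CPM and 2686, 2633, 2506 and 2352 CPM. The intervals of clusters 1 and 4 overlapped in all 4 libraries. Cluster 11 was led by Fabp5, Cst7, Lpl and Apoe, genes known from microglia that respond to damage, and it stood below clusters 1, 2 and 4 in 4 of 4 libraries with no overlap of intervals. Its level was 2217 CPM (1995 to 2457, 16 cells) in sham, 1919 CPM (1836 to 2005, 121 cells) in isotype stroke, 1866 CPM (1789 to 1945, 151 cells) under anti-VCAM1 and 1676 CPM (1613 to 1741, 213 cells) under anti-VLA4. Clusters 7 and 8 were the lowest, at 1511 to 1712 and 1402 to 1512 CPM, and were also the shallowest, with medians of 2466 to 3054 and 1896 to 2434 UMIs a cell against 7162 to 9394 in cluster 11. The part of depth in the low level of clusters 7 and 8 was not tested. All other members were at or below 6.25 CPM in microglia-like cells.

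**Figure D2:**
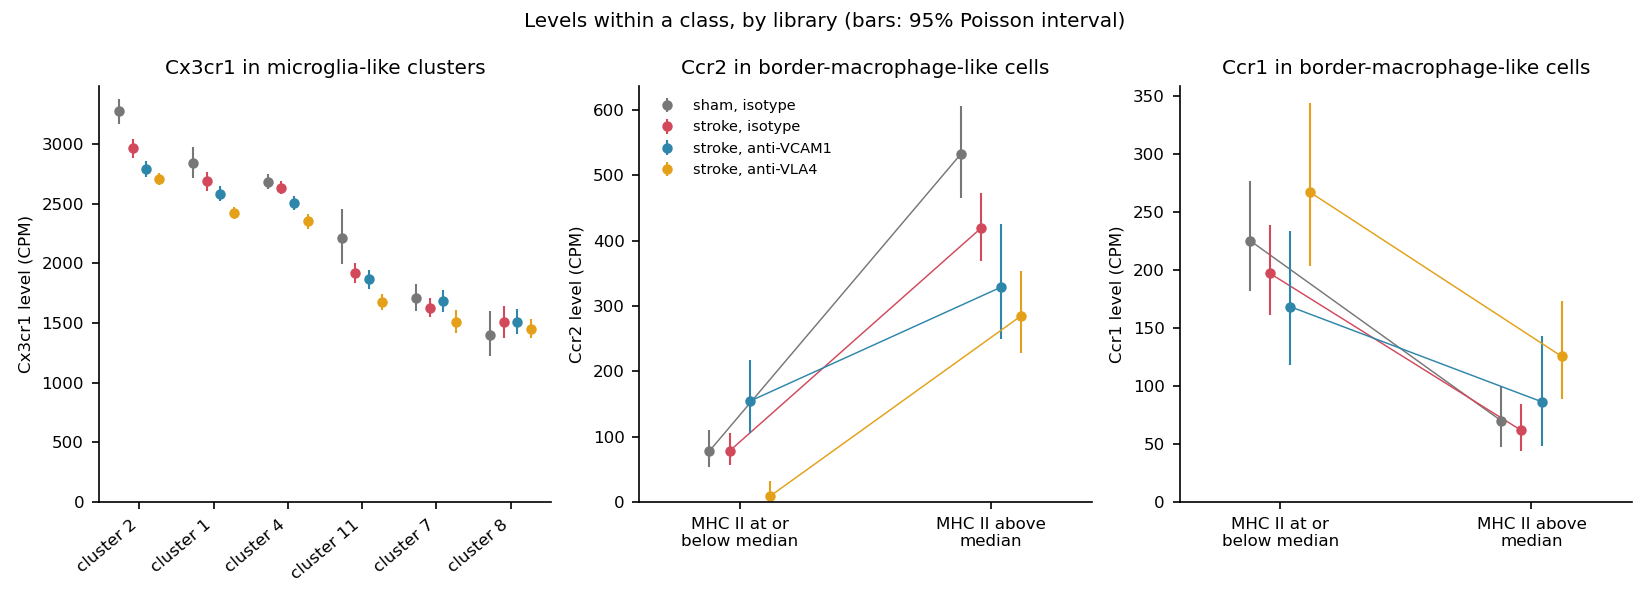
Level (CPM, with 95% Poisson intervals) of Cx3cr1 in the 6 microglia-like clusters, and of Ccr2 and Ccr1 in border-macrophage-like cells below and above their median share of MHC class II UMIs, with 1 point a library. Cluster 11 lies below clusters 1, 2 and 4 in each library, Ccr2 is higher above the median and Ccr1 higher below it in all 4 libraries.

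Border-macrophage-like cells ranked next for Cx3cr1 in all 4 libraries, at 1164, 987, 1082 and 747 CPM. Without the shared barcodes the sham level was 800 CPM (732 to 872), and monocyte-like cells came before it at 843 CPM (681 to 1033), with overlapping intervals. The stroke over sham ratio in border-macrophage-like cells was -0.24 (-0.36 to -0.11), but it was 0.31 without the shared barcodes, since 7 deep sham cells held 460 of the 974 sham UMIs. Cx3cr1 also appeared in lymphocytes, and these values followed microglia genes cell by cell. In T-cell-like cells its level was 690, 229, 298 and 57.6 CPM, the anti-VLA4 library being the lowest. The sham level was 250 CPM (206 to 302) without the shared barcodes, since 6 cells held 284 of its 394 UMIs. In the 9, 25, 17 and 16 cells of the class with UMIs of 2 or more of 8 microglia markers it was 2383, 1310, 1101 and 503 CPM, and in the other 64, 222, 94 and 186 cells it was 9.83, 15.3, 14.5 and 13.9 CPM. Endothelial-like cells had 10.1, 41.7, 15.6 and 16.2 CPM. B-cell-like cells showed the same split, with 1626, 1769 and 473 CPM in cells with 2 or more microglia markers and 15.1, 110 and 5.91 CPM in the others of the 3 stroke libraries. The 8 microglia markers summed to 311 to 2226 CPM in T-cell-like cells, 12.8 to 3376 CPM in B-cell-like cells and 66.0 to 198 CPM in endothelial-like cells. In border-macrophage-like cells they summed to 2615, 2628, 3120 and 1878 CPM. Monocyte-like cells had 2558 CPM in sham, 501 CPM in isotype stroke and 276 CPM under anti-VCAM1. The part of microglia transcripts in the Cx3cr1 levels of border-macrophage-like and monocyte-like cells was not tested.

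Cxcr6 was concentrated in T-cell-like cells. Its level was 314 CPM (269 to 363, 179 UMIs) in sham, 460 CPM (423 to 499, 575 UMIs) in isotype stroke, 553 CPM (493 to 618, 310 UMIs) under anti-VCAM1 and 537 CPM (489 to 588, 466 UMIs) under anti-VLA4. The sham library was the lowest and the 2 blockade libraries overlapped each other. The log2 ratio was 0.55 (0.31 to 0.80) for stroke over sham, 0.26 (0.06 to 0.47) for anti-VCAM1 over isotype and 0.22 (0.04 to 0.40) for anti-VLA4 over isotype. The stroke value was 0.25 without the shared barcodes, because the 6 shared sham cells held 22.9% of the class UMIs and 7 of its 179 Cxcr6 UMIs, and -0.07 when each cell was thinned to 1000 UMIs. The share of thinned cells with a Cxcr6 UMI, leaving out 1 to 6 shallower cells a library, was 38.9%, 32.4%, 34.6% and 40.3%, with overlapping intervals, against 0.125% to 0.349% of microglia-like cells. Unthinned shares were 82.2%, 68.0%, 72.1% and 68.3% in T-cell-like cells, whose median depth was 5726, 4532, 4720 and 3859 UMIs.

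The groups of T-cell-like cells differed widely in Cxcr6. The class was divided into 11 sub-clusters without the chemokine and receptor genes and without shared barcodes. Sub-cluster 8, led by Cd163l1, Trdc (the constant region of the gamma-delta T cell receptor), Il23r and Il17a, had the highest pooled Cxcr6 level, at 1472 CPM in 27 cells, and it stood at 1449, 1387 and 1522 CPM in isotype stroke, anti-VCAM1 and anti-VLA4, with no sham cell. Sub-cluster 6, led by Izumo1r, Tnfrsf4 and Ikzf2, genes known from regulatory T cells, lay at the other end with 13.3 CPM, or 2 UMIs in 37 cells, of which 1, 28, 0 and 8 came from the 4 libraries. Without this sub-cluster and the shared barcodes, the stroke over sham ratio of Cxcr6 in the class was 0.32 (0.07 to 0.58). The anti-VCAM1 ratio was then 0.14 (-0.07 to 0.34) and the anti-VLA4 ratio 0.15 (-0.03 to 0.33), both with intervals that included 0. Between sub-clusters 8 and 6 were sub-cluster 10, led by Il1rl1, Calca, Csf2 and Areg, with 768 CPM in 15 cells, and sub-cluster 4, led by Cd40lg and Itga1, with 735 CPM in 62 cells. The 44 cells of sub-cluster 5, led by the NK receptor genes Ncr1 and Klrb1c, had 455, 514, 322 and 313 CPM. By coreceptor, cells with a Cd8a or Cd8b1 UMI had 321, 418, 535 and 492 CPM, and cells with no Cd8a, Cd8b1 or Cd4 UMI had 398, 532, 685 and 654 CPM. Icos, a T cell costimulatory receptor, and Thy1 were among the genes with the most similar profile to Cxcr6 over 21 class and library sums (Pearson r of log2 CPM + 1 of 0.979 and 0.973).

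Cxcr3 was also highest in T-cell-like cells in all 4 libraries, at 105 CPM (80.2 to 135, 60 UMIs), 106 CPM (88.4 to 125, 132 UMIs), 130 CPM (102 to 164, 73 UMIs) and 158 CPM (133 to 187, 137 UMIs). The sham and stroke isotype libraries were at the same level, with a log2 ratio of 0.01 (-0.44 to 0.47), and anti-VLA4 was the highest. The anti-VLA4 over isotype ratio was 0.58 (0.22 to 0.94) and stayed between 0.30 and 0.68 over the alternative settings run, and the anti-VCAM1 ratio was 0.30 (-0.13 to 0.73). The share of thinned cells with a Cxcr3 UMI was 11.1%, 12.03%, 14.0% and 14.3% (39.7%, 39.3%, 44.1% and 41.1% unthinned), against 0 to 0.167% of microglia-like cells, and at this depth it did not separate the libraries. In T-cell-like cells with a Cd8a or Cd8b1 UMI the level was 86.9, 97.9, 129 and 177 CPM, and in those with none of the coreceptors 156, 99.7, 135 and 120 CPM. Sub-cluster 1, led by Lgals3, Ly6a and Ly6c2, had the highest pooled level, 246 CPM in 97 cells, of which 1, 26, 20 and 50 came from the 4 libraries. Sub-cluster 10 had no Cxcr3 UMI in 15 cells. Sub-cluster 5 stood at 233 and 149 CPM in sham and isotype stroke, and at 0 and 26.1 CPM under anti-VCAM1 (9 cells) and anti-VLA4 (8 cells). Outside lymphocytes, Cxcr3 had 23 UMIs in dendritic-like, 22 in border-macrophage-like and 24 in microglia-like cells. Dendritic-like sub-cluster 3 held 15 of these, at 52.8 CPM in 26 cells. It was led by Ifi205, Irf7, Ly6a, Isg15, Plac8, Ly6c2 and Clec9a.

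**Figure D3:**
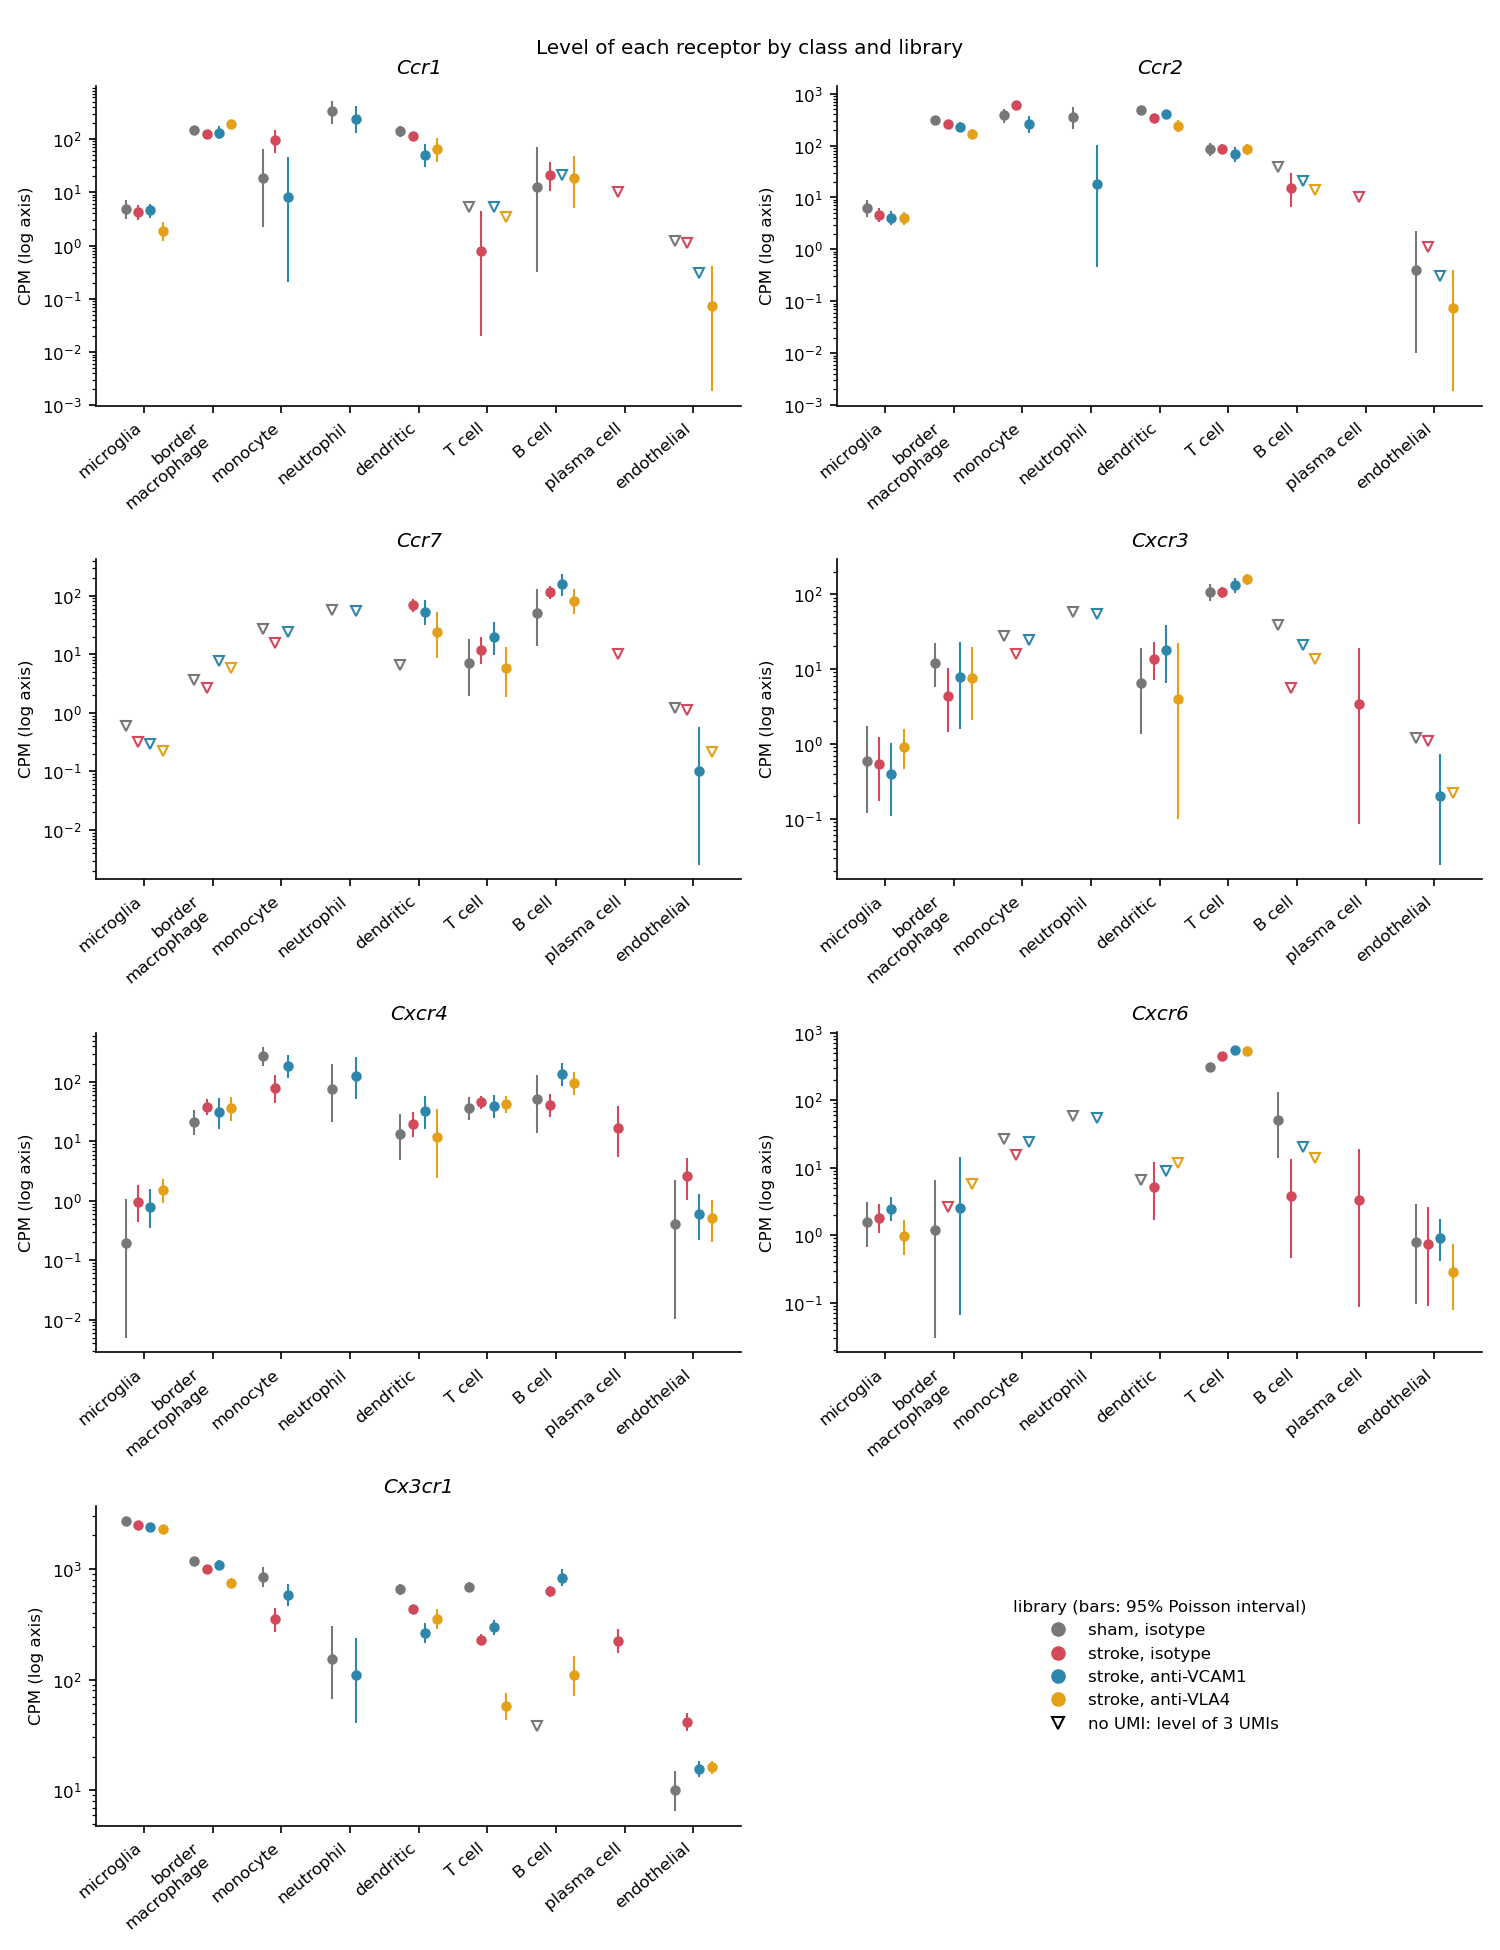
Level of each receptor (CPM on a log axis, with 95% Poisson intervals) in each leukocyte class with at least 10 cells and in endothelial-like cells, with 1 point a library. Open triangles mark classes with no UMI at the level that 3 UMIs would give; Cxcr6 and Cxcr3 stand highest in T-cell-like cells and Cx3cr1 in microglia-like cells.

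Ccr2 had no single highest class. Dendritic-like cells stood first in sham, anti-VCAM1 and anti-VLA4 and monocyte-like cells in isotype stroke, with overlapping intervals between these 2 classes in sham and anti-VCAM1. Dendritic-like cells had 483 CPM (421 to 551), 346 CPM (310 to 385), 408 CPM (342 to 482) and 239 CPM (182 to 307), and without shared barcodes sham had 554 CPM from 22 cells. The make-up of the class differed between libraries: sub-cluster 0, led by Apoe, Trem2 and C1q genes, had 1 Ccr2 and 0 Ccr1 UMIs in 59 cells, and it held 3 of 22, 13 of 83, 18 of 44 and 25 of 46 cells without shared barcodes. Without it Ccr2 had 582 CPM (472 to 710), 363 CPM (325 to 405), 504 CPM (421 to 597) and 313 CPM (239 to 403), and the intervals of isotype stroke and anti-VLA4 overlapped. Monocyte-like cells had 381, 615 and 260 CPM in the libraries with at least 10 such cells, and under anti-VLA4 all 21 Ccr2 UMIs were in 1 of 4 cells. Ccr1 and Ccr2 have relatives close in sequence, such as Ccr1l1 for Ccr1, so reads of either could have been divided or dropped in counting. Endothelial-like cells had at most 1 Ccr2 UMI a library.

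In border-macrophage-like cells Ccr2 had 311 CPM (274 to 351, 260 UMIs) in sham, 263 CPM (234 to 294, 299 UMIs) in isotype stroke, 232 CPM (187 to 286, 90 UMIs) under anti-VCAM1 and 165 CPM (132 to 204, 86 UMIs) under anti-VLA4. The anti-VLA4 library was the lowest, and its interval did not overlap those of sham and isotype stroke. The log2 ratio of anti-VLA4 over isotype was -0.66 (-1.03 to -0.32), and it was negative under every alternative setting run, from -1.23 to -0.11. The stroke ratio was -0.24 (-0.49 to 0.0023) and the anti-VCAM1 ratio -0.18 (-0.53 to 0.17). Ccr1 went the other way in the same class, at 146 CPM (121 to 174), 124 CPM (104 to 146), 132 CPM (98.1 to 173) and 187 CPM (151 to 228), anti-VLA4 being the highest. Its ratio of anti-VLA4 over isotype was 0.59 (0.20 to 0.98), between 0.36 and 0.82 over the alternative settings. Its stroke and anti-VCAM1 ratios were -0.23 (-0.60 to 0.13) and 0.09 (-0.40 to 0.56).

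Ccr2 and Ccr1 were unequal within the border-macrophage-like class, in opposite directions. Cells were divided at the median share of MHC class II UMIs (H2-Aa, H2-Ab1, H2-Eb1 and Cd74), which was 2.02%. Above it Ccr2 stood at 532, 419, 329 and 285 CPM, and at or below it at 78.3, 78.4, 154 and 8.89 CPM, with no overlap of intervals in any library. Ccr1 had 70.0, 61.7, 86.5 and 126 CPM above the median and 225, 197, 168 and 267 CPM at or below it, with overlapping intervals in the anti-VCAM1 library alone. In cells thinned to equal depth the order was the same in 4 of 4 libraries: 32.8%, 24.5%, 23.1% and 12.2% of those above the median had a Ccr2 UMI, against 3.85%, 4.94%, 6.67% and 2.27% at or below it. Unthinned, 42 of 58, 55 of 94, 17 of 26 and 18 of 42 cells above the median had one, and 8 of 55, 7 of 87, 6 of 32 and 1 of 47 at or below it. Cxcr4 stood at 25.7, 55.2, 46.1 and 50.9 CPM above the median and at 17.1, 19.1, 18.7 and 17.8 CPM at or below it. The markers that named the class were unequal too: their summed level was 1191 to 2334 CPM above the median and 6243 to 9108 CPM at or below it. Cells above the median thus had less of what names the class, and dendritic markers summed to 138 to 283 CPM in them against 341 to 431 CPM in the others, with the order the same in each library. Microglia markers summed to 1510 to 1723 CPM above the median and to 2094 to 4274 CPM at or below it, also lower above it in each library. Monocyte markers had 81.7, 102, 202 and 119 CPM above the median and 171, 21.0, 108 and 75.6 CPM at or below it, the sham library running opposite to the others. The part of these marker differences in the receptor levels was not tested.

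Beyond border macrophages, Ccr1 was highest in neutrophil-like cells where these reached 10 cells (sham and anti-VCAM1), at 328 CPM (191 to 525) in sham and 239 CPM (127 to 408) under anti-VCAM1, the latter overlapping the border-macrophage-like level. Dendritic-like cells had 140, 113, 50.6 and 63.7 CPM, and without sub-cluster 0 and shared barcodes 162, 116, 64.9 and 83.4 CPM. In T-cell-like cells there was 1 Ccr1 UMI in 633 cells. Rab7b, an endosomal GTPase, and the scavenger receptor Cd36 had profiles like that of Ccr1 (r of 0.949 and 0.934), with F630028O10Rik between them (0.936), and Lilr4b, an inhibitory receptor of myeloid cells, had the profile most like that of Ccr2 (0.964).

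Ccr2 in lymphocytes was lower and uneven. T-cell-like cells had 84.1, 87.2, 67.8 and 84.1 CPM, and the 3 ratios between libraries had intervals that included 0. Cells with a Cd8a or Cd8b1 UMI had 70.2, 43.8, 22.4 and 35.4 CPM, below cells with none of the coreceptors in 4 of 4 libraries (121, 156, 171 and 202 CPM). The intervals of these 2 groups did not overlap in the 3 stroke libraries. The Trdc and Il17a sub-cluster had the highest level, at 435, 289 and 488 CPM in the 3 stroke libraries, so that Cxcr6 and Ccr2 were both highest in these 27 cells.

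Ccr7 lay in B-cell-like cells and in a small group of dendritic-like cells. B-cell-like cells had 51.2 CPM (14.0 to 131), 115 CPM (87.8 to 147), 158 CPM (100 to 238) and 82.7 CPM (48.99 to 131), and each interval overlapped at least 1 other. Dendritic-like cells had no Ccr7 UMI in 34 sham cells, where 3 UMIs would give 6.55 CPM, and 68.8, 53.6 and 23.9 CPM in the stroke libraries. Without shared barcodes 22 sham dendritic-like cells were left, and the upper end of their interval was 21.1 CPM. It overlapped the interval of dendritic-like cells under anti-VLA4 (8.77 to 52.0 CPM). Of the 90 Ccr7 UMIs in this class 70 were in sub-cluster 2, led by Mreg, Il4i1 and Cacnb3, genes known from mature migratory dendritic cells. It held 33 cells, 22 from isotype stroke, 7 under anti-VCAM1, 4 under anti-VLA4 and none from sham. Within it the level was 200, 184 and 148 CPM in those 3 libraries. Sub-cluster 1, led by Tnip3, Il1rl1 and Cd209c, held 15 sham cells and was the highest for Ccr2, at 678, 490, 978 and 806 CPM. In 2 other sub-clusters, with 59 and 15 cells, the leading genes were Apoe, Trem2 and C1q genes or Csmd3 and Mertk, and Cx3cr1 there was 811 and 1419 CPM, so that part of the dendritic-like class carried genes of microglia and macrophages. In T-cell-like cells Ccr7 had 7.01, 12.01, 19.6 and 5.76 CPM, from 4 to 15 UMIs a library, and the sham value was 4.55 CPM from 2 UMIs without shared barcodes.

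Cxcr4 was highest in monocyte-like cells in the 3 libraries with at least 10 of them, at 272 CPM (184 to 388) in sham, 78.2 CPM (43.8 to 129) in isotype stroke and 187 CPM (118 to 280) under anti-VCAM1. The interval of the next class overlapped in each, that of neutrophil-like, T-cell-like and B-cell-like cells in turn. B-cell-like cells had 51.2, 41.4, 138 and 96.4 CPM. Their isotype stroke interval (25.9 to 62.7) did not overlap that of anti-VCAM1 (84.2 to 213). T-cell-like cells had 36.8, 45.6, 39.3 and 42.6 CPM of Cxcr4, with overlapping intervals for all 4 libraries. In border-macrophage-like cells it had 21.5, 38.6, 31.0 and 36.6 CPM, and the stroke over sham ratio of 0.82 (0.02 to 1.72) turned to -0.15 at the lower cluster resolution. Clec2i, Mndal and Ifi203 had the most similar profiles (r of 0.941, 0.933 and 0.926).

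Within a class 2 of 42 receptor ratios were at least 2-fold, against 0.571% to 12.1% of all genes by class and comparison. With 4 to 6 members tested at a time, these counts do not set the receptors apart from all genes. In microglia-like cells 0 of the 4 members with at least 20 UMIs in the stroke comparison differed by 2-fold, against 1.35% of all 12221 genes tested there. It was 0 of 4 for anti-VCAM1 (0.621% of all genes) and 0 of 5 for anti-VLA4 (0.571%). In border-macrophage-like cells it was 0 of 4 in each comparison, where 4.91%, 7.71% and 8.96% of all genes passed. In T-cell-like cells it was 1 of 5 for stroke (12.1% of genes), 0 of 6 for anti-VCAM1 (7.09%) and 1 of 6 for anti-VLA4 (6.81%). Both calls were Cx3cr1, with log2 ratios of -1.59 and -1.97, and they became 0.59 and -0.13 without cells that carried 2 or more microglia markers. The stroke ratio was -0.10 (-0.43 to 0.23) without the shared barcodes, and the anti-VLA4 ratio -0.73 with doublets kept, so that neither was then 2-fold. The anti-VCAM1 and anti-VLA4 comparisons share the stroke isotype library. Median-of-ratios scaling moved the stroke comparison in T-cell-like cells by 0.12, where the median of all genes was -0.10.

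**Figure D4:**
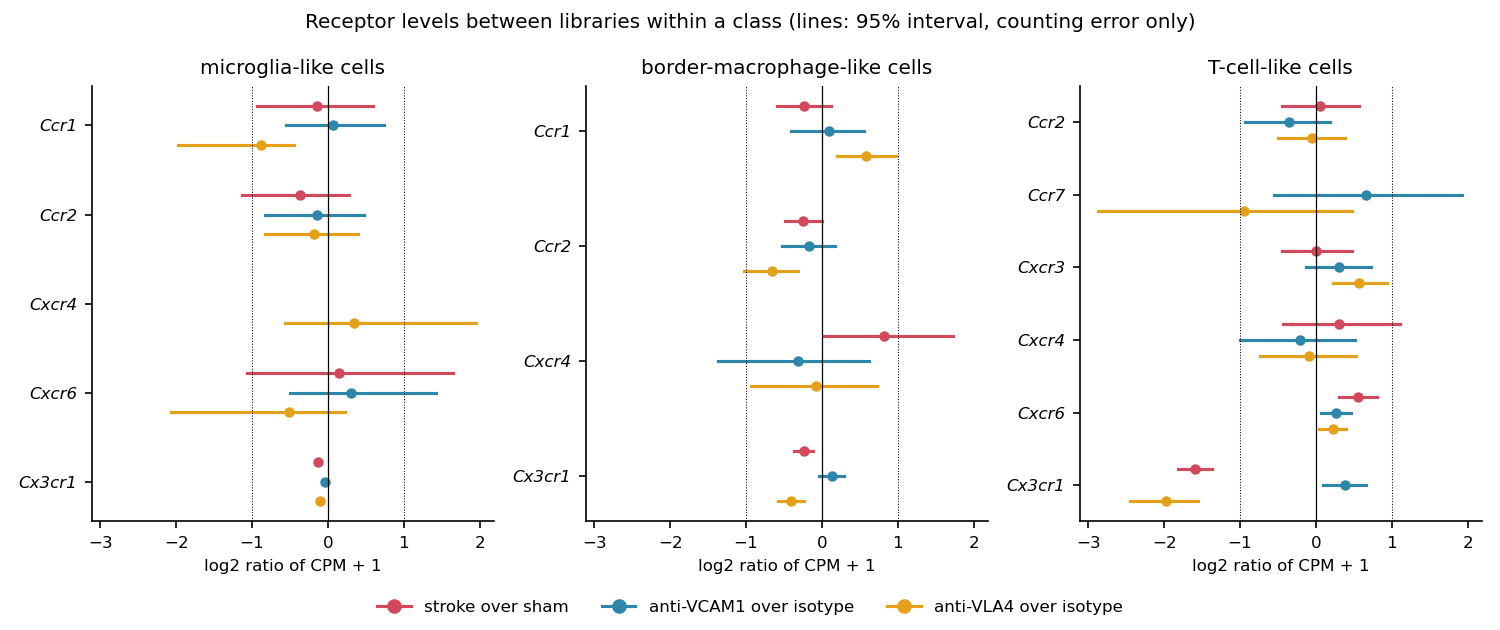
Log2 ratio of CPM + 1 between libraries, with 95% intervals for counting error, for the receptors with at least 20 UMIs in microglia-like, border-macrophage-like and T-cell-like cells. The only points beyond the dotted lines at 2-fold are those of Cx3cr1 in T-cell-like cells for stroke and anti-VLA4.

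Over whole libraries the receptors differed far more between blockade and isotype than within classes. Over all kept cells Ccr2 had 63.0 CPM (58.1 to 68.1), 54.1 CPM (50.7 to 57.8), 13.9 CPM (12.4 to 15.4) and 9.55 CPM (8.54 to 10.7), and both blockade libraries lay below the other 2 with no overlap. Cxcr6 had 19.6, 35.8, 14.1 and 14.5 CPM. Ccr7 had 0.809, 8.45, 2.17 and 0.869 CPM, from 8 UMIs in sham, and was the 1 member of 7 at least 2-fold higher in stroke than in sham, where 1.35% of 15015 genes were. With anti-VCAM1 6 of 7 members were at least 2-fold lower than in isotype stroke, where 4.58% of all genes were, and under anti-VLA4 5 of 7 were, where 4.73% were. The exceptions were Cx3cr1 in both (-0.54 and -0.67) and Cxcr3 under anti-VLA4 (-0.88). In each library 91.8% to 100% of the UMIs of a member were in leukocyte classes. Those classes were 75.6% of kept cells in isotype stroke, 44.4% under anti-VCAM1 and 45.5% under anti-VLA4. The share over all genes covers genes of all cell types, so it is not a like comparison for these members. The sort and the group cannot be told apart here either. Among leukocytes alone 3 of 7 were 2-fold lower under either antibody, namely Ccr1, Ccr2 and Ccr7, where 3.18% and 2.92% of genes were. The mix of leukocytes differed too. Microglia-like cells, low in these genes, were 68.2% of leukocyte-class cells in isotype stroke, 86.9% under anti-VCAM1 and 86.2% under anti-VLA4. The exchange of class shares given below was not run on leukocytes alone. Ccr7 was again the 1 of 7 that was higher in stroke than in sham, as were 1.42% of genes.

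Holding the level of each class at its stroke isotype value and taking the share of UMIs of each class from the blockade library gave ratios near those over whole libraries. For Ccr2 and anti-VLA4 the ratio was -2.39 over whole libraries, -2.14 with the class shares alone exchanged and -0.38 with the class levels alone exchanged. For Cxcr6 and anti-VCAM1 the values were -1.28, -1.54 and 0.25. With levels alone exchanged, Cxcr3, Cxcr4 and Cxcr6 were above 0 in both comparisons (0.17 to 0.44), opposite in sign to their whole-library ratios. For Cxcr4 the ratios were below 0 in T-cell-like (-0.21 and -0.10) and border-macrophage-like cells (-0.31 and -0.08), with intervals that included 0. In microglia-like cells its anti-VLA4 ratio was 0.34 (-0.57 to 1.95). Among classes too few for ratios, B-cell-like cells had 138 and 96.4 CPM against 41.4, and dendritic-like cells 32.7 and 11.9 against 19.8. Monocyte-like cells had 187 against 78.2 CPM under anti-VCAM1. As shares of kept cells, the border-macrophage-like class had 7.45%, 6.39%, 1.24% and 1.43%, dendritic-like cells 2.24%, 3.81%, 0.965% and 0.741%, and T-cell-like cells 4.82%, 8.72%, 2.38% and 3.25%. Without shared barcodes 22 of the 34 sham and 83 of the 108 isotype stroke dendritic-like cells were left.

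**Figure D5:**
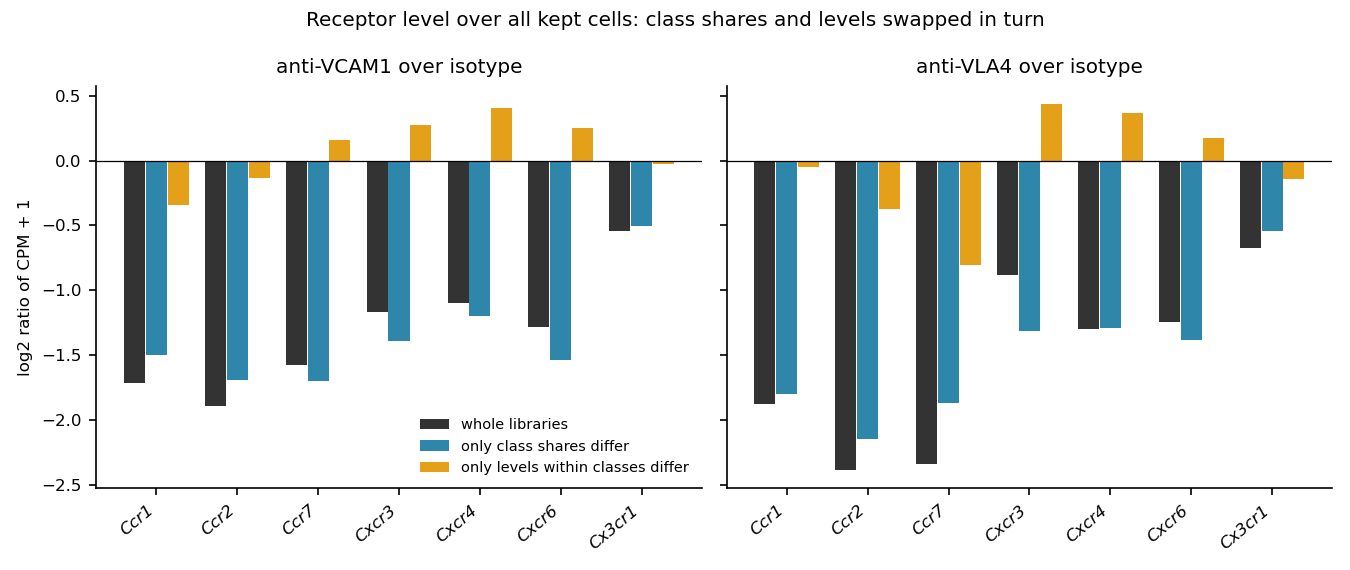
Log2 ratio of CPM + 1 over all kept cells for each receptor, for anti-VCAM1 and anti-VLA4 over isotype: whole libraries, with only the class shares of UMIs exchanged, and with only the levels within classes exchanged. Bars with shares exchanged follow the whole-library bars, for Ccr2 and anti-VLA4 -2.14 against -2.39, and bars with levels exchanged lie nearer to 0 for all members.

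The ligands of these receptors came from other classes than the receptors in several cases. Cxcl12, the ligand of Cxcr4, was highest in endothelial-like cells (4093 to 5593 CPM), and Cx3cl1 stood at 37.0 to 45.0 CPM there. Ccl5 was highest in T-cell-like cells (2907 to 5387 CPM), and Ccl2, Ccl7 and Ccl12, the ligands of Ccr2, were highest in border-macrophage-like cells, which also had the most Cxcl16 (238 to 292 CPM). Of the 17 ligands listed 16 were in the gene table. In border-macrophage-like cells 6 of 11 tested were at least 2-fold lower in stroke than in sham and 0 higher, with a median log2 ratio of -1.05 against -0.01 for all genes, of which 2.37% were 2-fold lower. Those were Ccl2, Ccl7, Ccl8, Ccl12, Cxcl9 and Cxcl10, and Ccl12, for one, had 1059 CPM in sham and 405 CPM in isotype stroke. The sham class included the 7 cells with shared barcodes, which held 23.2% of its UMIs. No ligand value without these cells is given here. Under anti-VLA4 7 of 13 were higher than with isotype and 0 lower, with a median of 1.23 against -0.03, where 4.02% of all genes were higher. They were Ccl2, Ccl5, Ccl8, Ccl12, Cxcl9, Cxcl10 and Cxcl12, and Ccl2 had 691 CPM against 286 CPM. Single cells carried part of this: 139 Cxcl9 UMIs of the sham class were in its 1 cell with the gene, 110 of the 142 under anti-VLA4 were in 1 of 6, and the Cxcl12 ratio of 5.75 came from 297 UMIs in 11 cells against 11 UMIs in 9. Cxcl12 was also at least 2-fold higher under anti-VLA4 in microglia-like (19.4 against 6.35 CPM) and T-cell-like cells (19.6 against 4.00 CPM). Endothelial-like cells, where it was highest, were 39.1% of kept cells under anti-VLA4 and 20.9% in isotype stroke. Endothelial transcripts in the other classes were not tested as a source. With anti-VCAM1 Cxcl12 was the 1 of 12 ligands that was higher in border-macrophage-like cells (18 UMIs against 11) and Cxcl9 the 1 lower (0 UMIs against 58). In T-cell-like cells Ccl3 had 96.4, 44.0, 214 and 91.0 CPM, from 16, 24, 17 and 19 cells. Microglia-like cells had 554 CPM of it in isotype stroke and 295 CPM under anti-VLA4. No Ccl3 value without T-cell-like cells that carried microglia markers, or without the shared barcodes, is given here.

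Among the 17 other chemokine receptors 2 to 7 reached 20 UMIs in a class and comparison, and in microglia-like and border-macrophage-like cells none differed by 2-fold, with medians of 0.06, 0.01 and -0.14 in the former and 0.11, -0.26 and -0.62 in the latter. Xcr1 was highest in dendritic-like, Cxcr5 in B-cell-like and Cxcr2 in neutrophil-like cells. In T-cell-like cells 12.1%, 7.09% and 6.81% of all genes passed. Ccr8, a receptor of regulatory and type 2 helper T cells, was named here after its values were seen. It was the 1 of 3 that was higher in stroke than in sham (26.4 against 5.26 CPM, 33 UMIs against 3). It was also the 1 of 3 that was lower under anti-VCAM1 (1.78 against 26.4 CPM, 1 UMI against 33), and none of 4 passed under anti-VLA4. Sub-cluster 6, with its 1, 28, 0 and 8 cells, held 0, 6, 0 and 3 Ccr8 UMIs, and the other sub-clusters 3, 25, 1 and 12. Of 23 genes of receptor signalling, such as G protein subunits, arrestins, receptor kinases and Rgs proteins that shorten G protein signals, 20 to 22 were tested in a class and comparison and 0 to 2 differed by 2-fold. Apart from Plcb2, with at most 35 UMIs in a comparison, the 1 such gene was Rgs2 in stroke over sham, -1.29 (96.1 against 237 CPM, with 52 of the sham UMIs in 1 cell).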

How the data were processed

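Single-cell RNA libraries of 4 pooled groups were used. The authors deposited 1 matrix a library of whole-number UMI counts, and per the file headers Cell Ranger 7.0.1 wrote it. The submitters' processing notes name Cell Ranger 6.0.0 and Seurat 4.3.0.1. The build and counting options of the deposited matrices are not given in the sources used here. Computed here (Python 3.11.15, scanpy 1.11.5, leidenalg 0.10.2): cells with at least 500 UMIs, 200 genes and at most 10% mitochondrial UMIs were kept; Scrublet (expected rate 0.05) removed 0.590% to 1.96% of cells. Clustering used 2000 variable genes, 30 components, 15 neighbours and Leiden resolution 1, without chemokine and receptor genes. A class needed 3 or more detected markers. Levels carry exact Poisson intervals, shares Clopper-Pearson intervals, and log2 ratios (pseudocount 1 CPM) conditional binomial intervals computed without the pseudocount, so at low levels a ratio lies nearer 0 than its interval. Ratios needed 50 cells in each library and 20 UMIs, and a 2-fold difference counted as a call. With 1 library a group no test was possible. Intervals were tested on simulated data. The members, lists, naming rules and tests were chosen with earlier results of these data known. Sub-clusters and leaving one out, the exchange of class shares, and settings on shared barcodes, NK cells and microglia markers were added after seeing the data. Named list genes were the 2 with the largest ratio among those with 50 UMIs, and profiles the 3 most correlated genes; ligand and receptor levels by class, and genes that lead clusters, were chosen after their values were seen. A few values that these rules name are not reported here.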

Additional observations from a re-analysis of the deposited data

How the results depend on the processing

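No paired analysis was possible because each group is 1 library. Each receptor was first followed in whichever of the 3 classes with ratios had its highest mean level. For Ccr7 and Cxcr4 that was the T-cell-like class, though other classes with fewer cells stood higher. Over these 20 ratios between libraries, 259 values under alternative settings were computed. Of these, 236 lay within the interval of the reported ratio, 20 lay outside it and 3 had the sign opposite to a ratio whose interval left out 0. Counting ratios whose interval included 0 as well, 15 of the 259 had the opposite sign. For the other 22 ratios, 232 of 266 values lay within the interval and 27 outside it. A further 7 had the sign opposite to a ratio whose interval left out 0. Values from both sets follow. The cause was not tested except where given. Thinning to 1000 UMIs gave 0.0031 and -0.052 for Cx3cr1 in microglia-like cells (anti-VCAM1, anti-VLA4), -1.23 for Ccr2 in border-macrophage-like cells (anti-VLA4), and in T-cell-like cells -1.07 and -4.44 for Ccr7 (anti-VCAM1, anti-VLA4) and -0.070 and 0.044 for Cxcr6 (stroke, anti-VCAM1). Median-of-ratios scaling gave -0.083, -0.071 and -0.15 for Cx3cr1 in microglia-like cells (stroke, anti-VCAM1, anti-VLA4), and the mean over single cells gave -0.17, 0.014 and -0.039 there, -0.91 for Ccr7 (anti-VCAM1) and 0.29 for Cxcr6 (stroke) in T-cell-like cells. Naming each cell on its own markers gave -0.69 for Ccr1 and -0.59 for Ccr2 in border-macrophage-like cells (stroke). Resolution 0.5 gave there -0.43 for Ccr1 (anti-VCAM1) and -0.15 for Cxcr4 (stroke). Leaving out cells with 2 or more microglia markers, which left few border-macrophage-like cells since most carry such markers (85 of 113 in sham), gave there -0.74 for Ccr1 (stroke), 1.01, 0.61 and -0.11 for Ccr2 (stroke, anti-VCAM1, anti-VLA4), -0.16 for Cxcr4 (stroke) and 0.70 for Cx3cr1 (anti-VLA4), and in T-cell-like cells 0.59 and -0.077 for Cx3cr1 (stroke, anti-VCAM1). Keeping doublets gave -0.046 for Cx3cr1 in T-cell-like cells (anti-VCAM1). Leaving out barcodes found in 2 libraries, which removes the deepest sham cells, gave 0.25 for Cxcr6 and -0.10 for Cx3cr1 in T-cell-like and 0.31 for Cx3cr1 in border-macrophage-like cells (stroke), while leaving out the low-UMI copies alone moved no ratio outside its interval. The share of all genes past 2-fold moved with the UMI minimum: at 100 UMIs it was 0.417%, 0.201% and 0.273% in microglia-like, 1.32%, 1.39% and 2.95% in border-macrophage-like and 6.69%, 2.63% and 2.21% in T-cell-like cells (stroke, anti-VCAM1, anti-VLA4), and with no minimum it was 19.8%, 24.1% and 24.5% and 26.4%, 21.97% and 20.9% in the latter 2 classes. Depth limits Ccr7, Cxcr3 and Cxcr4 most, with 227 to 472 UMIs each over the sums used for profiles.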

Other observations

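Under anti-VLA4, 24 Ccr2 UMIs of the pericyte-like class were in 1 of 95 cells, and in the other 3 libraries that class had no Ccr2 UMI. In the plasma-cell-like class of isotype stroke 50 of 66 Cx3cr1 UMIs were in 1 of 25 cells. In the sham neutrophil-like class 17 of 18 Ccr2 UMIs were in 1 of 10 cells.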
